A study of Mus musculus with 82 samples.

Results

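The 9 genes of the mouse HoxB cluster, Hoxb1 to Hoxb9, were followed by their gene symbols through every RNA library of a study of ageing hematopoietic stem cells (HSCs), the bone marrow cells from which all blood lineages arise. They are 9 of the 55376 genes in the count tables. On chromosome 11 (build mm10, GRCm38) they lie in 1 direction over 96.8 kb, chr11:96271457-96368256, with Hoxb9 at the lower coordinate and Hoxb1 at the upper. The same interval held 27 of the 127695 regions in the ATAC-seq table of open chromatin. Histone peaks that the deposited tables name after a member numbered 5 of 39557 for H3K27ac, 10 of 33199 for H3K4me3 and 1 of 55820 for H3K27me3.

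RNA-seq covered 30 libraries in 11 groups. The mice were C57BL/6J males of 3 to 4 months (young) or 24 to 26 months (old), WT wherever the labels give a genotype, and fresh HSCs were sorted as Lin-Sca1+Kit+ cells lacking CD34 and Flk2 and carrying CD150. Young HSC RNA (4 libraries) came from pooled mice and old HSC RNA (8 libraries) from individual mice. Old HSCs were also cultured with cytokines and given a lentivirus with a scrambled hairpin (control) or with 1 of 2 hairpins against Btaf1 (shRNA1, shRNA2). GFP+ cells were sorted for RNA after 3.5 days (culture, 2 libraries a group), or the cells were transplanted into lethally irradiated young female CD45.1 mice and donor GFP+ HSCs, here gated as Lin-Sca1+Kit+ cells lacking CD48 and carrying CD150 and CD45.2, were sorted more than 4 months later from pools of 2 to 4 recipients (transplantation, 2 libraries a group). Common myeloid progenitors (CMP), granulocyte-monocyte progenitors (GMP) and megakaryocyte-erythroid progenitors (MEP) of young mice had 2 RNA libraries each. The ATAC-seq libraries used were 4 of young and 4 of old HSCs (old replicates 5 to 8), and the study's other old ATAC-seq libraries were not analysed here. H3K27ac ChIP-seq had 2 libraries of each age. H3K4me3 and H3K27me3 values were used from 2 young libraries each, and H3K36me3 as a list of domain positions that no source used here assigns to an age or cell type. All hairpin groups, controls included, had been cultured and transduced, and every transplanted group had passed through an irradiated host.

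Levels are given as CPM, the count of a gene scaled by the total of its library. RNA libraries held 20475764 to 24654742 counts in fresh HSCs and 33177394 to 42737054 in the hairpin and progenitor sets. Of the genes counted 1 to 20 times, 39.6% to 44.3% had an even count in fresh HSCs and 71.2% to 76.2% in the other sets, as arises when the mates of a read pair are counted separately. The 8 HSC markers read for this check, among them Slamf1, Procr, Mecom, Fgd5 and Hlf, summed to 4714 to 4778 CPM in young HSCs, 4290 to 4740 in old HSCs, 1897 to 2149 after culture, 3195 to 3595 after transplantation and 532.9 to 1028 in progenitors. Where nothing says that the libraries of a group came from separate mice or cultures, a p-value measures only the spread between these libraries, which may be technical. In bulk RNA, fewer cells of a type and less RNA per cell cannot be told apart.

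Hox proteins are transcription factors with a DNA-binding homeodomain, and their genes sit in clusters in the order in which they act along the body axis. In the embryo, retinoic acid opens the Hoxb1 end of the cluster first and the Hoxb9 end last, while Polycomb proteins deposit H3K27me3 over silent members and MLL proteins maintain H3K4me3 over active ones. In blood, Hoxb4 is known for expanding HSCs when overexpressed, Hoxb5 for marking long-term HSCs, and most Hox proteins bind DNA with PBX and MEIS partners of the TALE class.

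Sequence at Hoxb8 and Hoxb9, which were called higher with age, is shown beside sequence from Hoxb4, which was not called. RefSeq promoters (250 bases before to 50 after the start, GRCm38.p6) matched 3 of the 9 members, Hoxb8, Hoxb4 and Hoxb1, of which the first pair is printed. The other sequence is 300 bases from inside the ATAC-seq region over the Hoxb9 exon, named below. Capitals mark every match, on either strand, to the TATA box letters TATAAA, the CCAAT box, the E-box letters CACGTG, a PBX-HOX core spelled TGATNNAT or a MEIS core spelled TGACAG.
Hoxb8 promoter, chr11:96281655-96281954, plus strand: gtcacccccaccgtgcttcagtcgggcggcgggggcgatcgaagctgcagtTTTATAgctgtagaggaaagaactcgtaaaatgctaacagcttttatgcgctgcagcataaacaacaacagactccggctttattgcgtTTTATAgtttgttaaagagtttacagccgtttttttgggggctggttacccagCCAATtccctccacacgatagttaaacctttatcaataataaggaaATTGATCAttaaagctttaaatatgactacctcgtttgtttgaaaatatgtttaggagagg
Hoxb4 promoter, chr11:96318017-96318316, plus strand: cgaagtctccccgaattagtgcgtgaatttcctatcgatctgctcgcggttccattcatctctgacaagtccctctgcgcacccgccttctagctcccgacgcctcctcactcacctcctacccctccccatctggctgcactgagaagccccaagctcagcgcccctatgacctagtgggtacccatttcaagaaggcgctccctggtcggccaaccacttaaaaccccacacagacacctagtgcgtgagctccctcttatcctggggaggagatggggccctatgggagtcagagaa
Hoxb9 accessible window, chr11:96271953-96272252, plus strand: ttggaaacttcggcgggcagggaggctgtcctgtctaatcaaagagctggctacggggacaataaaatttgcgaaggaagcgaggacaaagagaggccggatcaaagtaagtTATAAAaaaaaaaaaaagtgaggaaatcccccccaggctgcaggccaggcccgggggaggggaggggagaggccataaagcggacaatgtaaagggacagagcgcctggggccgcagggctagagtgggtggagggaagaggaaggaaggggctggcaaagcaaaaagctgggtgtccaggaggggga

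The Hoxb8 promoter held 4 matches, namely TATAAA at 199 and 110 bases before the start, CCAAT at 57 and TGATNNAT at 11 bases before it. The Hoxb9 window held a single TATAAA, and the Hoxb4 promoter held none. The promoter of Hoxb1, which was not called with age either, held 3, CCAAT at 171 and 117 and TGATNNAT at 162 bases before the start. Among all 32851 promoters of the table, TATAAA was present in 13.62%, CCAAT in 37.41%, CACGTG in 7.15%, TGATNNAT in 8.846% and TGACAG in 19.18%. In the central 300 bases of the 4866 ATAC-seq regions on chromosome 11 the shares were 10.73%, 29.82%, 6.679%, 8.118% and 21.52% in the same order. A match is a stretch of letters and binding was not measured.

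With age, the genes of the Hoxb9 end were higher and the rest of the cluster differed less. Hoxb9, Hoxb8, Hoxb7 and Hoxb6 passed the test (edgeR quasi-likelihood test, fold change above 1.5 and Benjamini-Hochberg adjusted p below 0.05), so that 4 of 9 members were called higher in old HSCs and 0 lower, where 4.69% of the 21522 genes tested were called higher. All 9 members passed the filter on low counts, but Hoxb8 did so only through the old libraries, so its call is a description, and 3 of the other 8 members were called. Over all 9 members, Hoxb8 included, the median log2 fold change was 0.48, against -0.01 over all genes tested.

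Hoxb8 was near the limit of counting in young HSCs, where it was counted 10, 2, 4 and 3 times, which is 0.418, 0.0977, 0.184 and 0.124 CPM, and in the 8 old libraries it ranged from 0.536 to 2.17 CPM with a median of 1.27. The lowest old library lay above the highest young one. The fitted log2 fold change was 2.62 ± 0.45 (SE, n = 4 and 8), given with no test since only the old libraries carried the gene past the filter. Hoxb8 is a factor known for holding myeloid progenitors undifferentiated when overexpressed, and even in old HSCs its per-length level was low, 0.485 CPM per kb of exon.

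Hoxb7 lies 15.17 kb from the Hoxb9 start. Its young values were 0.586, 0.928, 0.921 and 1.49 CPM, and its old values ran from 3.22 through a median of 4.28 to 5.27 CPM. All old libraries stood above all young ones, by a log2 fold change of 2.14 ± 0.23 (edgeR adjusted p = 1.63e-07). Hoxb6 measured 4.06, 4.88, 4.51 and 3.40 CPM in young HSCs and 8.52 to 10.7 CPM in old HSCs, with a median of 9.67. Its groups were also apart, with a log2 fold change of 1.23 ± 0.11 (edgeR adjusted p = 1.34e-08), the smallest error among these 4 genes.

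Hoxb9, the most posterior member here, had 2.30, 2.69, 4.46 and 4.85 CPM in young HSCs and 6.72 to 11.8 CPM in old HSCs, with a median of 8.02. The young libraries fell into a lower and a higher pair, and both pairs lay below the old range. The log2 fold change was 1.24 ± 0.19 (edgeR adjusted p = 6.34e-05).

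The genes from Hoxb5 to Hoxb2 differed by less than 1.5-fold. Hoxb4 measured 5.07 ± 0.322 CPM (SD, n = 4) in young and 6.88 ± 0.680 CPM (SD, n = 8) in old HSCs, a 1.40-fold difference (log2 0.48 ± 0.11, edgeR adjusted p = 2.98e-03). Hoxb3, a neighbour of Hoxb4 with a role in HSC proliferation, differed 1.28-fold (log2 0.35 ± 0.09, adjusted p = 3.59e-03), and Hoxb2 differed 1.32-fold (log2 0.40 ± 0.08, adjusted p = 7.58e-04). In these 3 genes the old and young ranges did not overlap and the adjusted p was below 0.05, and the fold change alone kept them from being called.

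Hoxb5 did not pass. Its young values of 16.1, 20.3, 19.5 and 15.1 CPM overlapped the old range of 17.3 to 21.1 CPM, and the log2 fold change was 0.19 ± 0.08 (edgeR adjusted p = 0.0951). Hoxb1, the most anterior member, was low in all fresh HSCs, with 12 to 26 counts in young and 5 to 25 in old libraries, overlapping ranges and a log2 difference of -0.23 ± 0.41 (adjusted p = 0.777). In all, the ranges of old and young HSCs did not overlap for 7 of 9 members, or 6 of 8 without Hoxb8, where this held for 15.09% of all genes tested, in either direction.

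**Figure D1:**
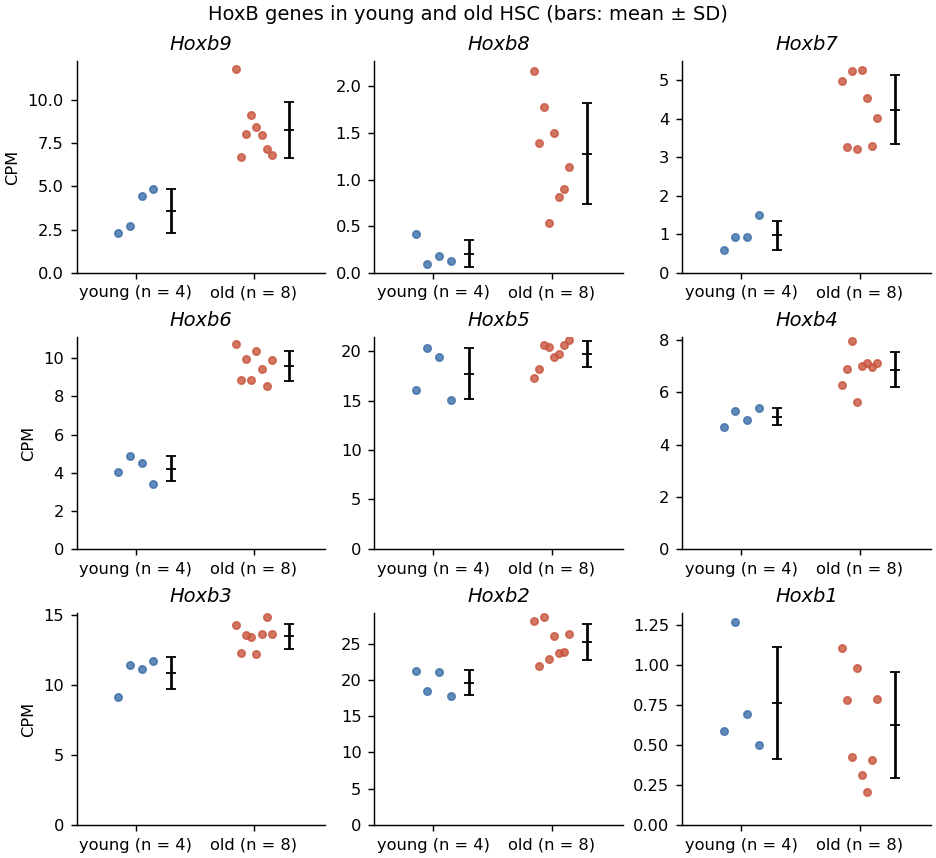
CPM (y axis, from 0) of each HoxB gene in young (blue, n = 4) and old (red, n = 8) HSC libraries, 1 point a library, with bars for the mean ± SD. Old and young points separate in 7 of the 9 panels, all but Hoxb5 and Hoxb1, and the ratio of means is largest for Hoxb8 and Hoxb7.

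The summed HoxB level was 63.0 ± 3.96 CPM in young HSCs (59.0 to 67.4) and 89.2 ± 5.56 CPM in old HSCs (80.3 to 96.7). Hoxb6 to Hoxb9 made up 8.98 ± 1.26 CPM of it in young and 23.3 ± 3.26 CPM in old HSCs. Their share of the HoxB total was 12.5% to 16.4% in young libraries and 22.9% to 30.7% in old ones. Hoxb6 to Hoxb9 are the members called higher in these same libraries, so their sum and share are a description. The 5 genes Hoxb1 to Hoxb5 summed to 54.1 ± 3.46 CPM in young and 65.9 ± 3.45 CPM in old HSCs.

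Per kb of exon, Hoxb5 had the highest level in young HSCs, 6.37 CPM per kb, followed by Hoxb2 at 5.63, Hoxb3 at 2.55, Hoxb6 at 2.15, Hoxb4 at 1.98, Hoxb9 at 1.39, Hoxb7 at 0.636, Hoxb1 at 0.328 and Hoxb8 at 0.0782. In old HSCs Hoxb2 (7.22 CPM per kb) and Hoxb5 (7.07) were still ahead, and Hoxb6 followed them at 4.88. Hoxb9, at 3.2 CPM per kb in old HSCs, was then next to Hoxb3 at 3.17. Reads cannot always be assigned here: 52.9% of the Hoxb3 exon length and 27.3% of that of Hoxb2 lie over exons of the antisense gene Hoxb3os, 3.59% of Hoxb5 lies over Hoxb5os, and whether counting used strand is not stated in the sources used here. The 4 members called higher share no exon base with another gene.

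The other genes of the neighbourhood did not all follow. The antisense gene Hoxb3os measured 25.7 ± 0.768 CPM in young and 33 ± 2.02 CPM in old HSCs, a 1.32-fold difference (edgeR adjusted p = 2.37e-05) that is close to that of the genes it overlaps. Hoxb5os, whose start lies beyond Hoxb5 and whose body runs across Hoxb6, differed by 0.13 ± 0.10 on the log2 scale (adjusted p = 0.438) with overlapping groups. Gm11536, inside Hoxb3, averaged 0.233 against 0.426 CPM (young against old, adjusted p = 0.244). Of the nearest protein-coding genes outside, Skap1, an adaptor protein gene on the Hoxb1 side, was called higher, at 3.66 ± 0.591 against 10.5 ± 1.09 CPM (log2 1.57 ± 0.12, adjusted p = 6.31e-10). Snx11, Cbx1 and Ttll6 were not called, and Hoxb13 and Calcoco2 were below the filter. Mir10a, a microRNA gene inside the cluster, was below it too.

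**Figure D2:**
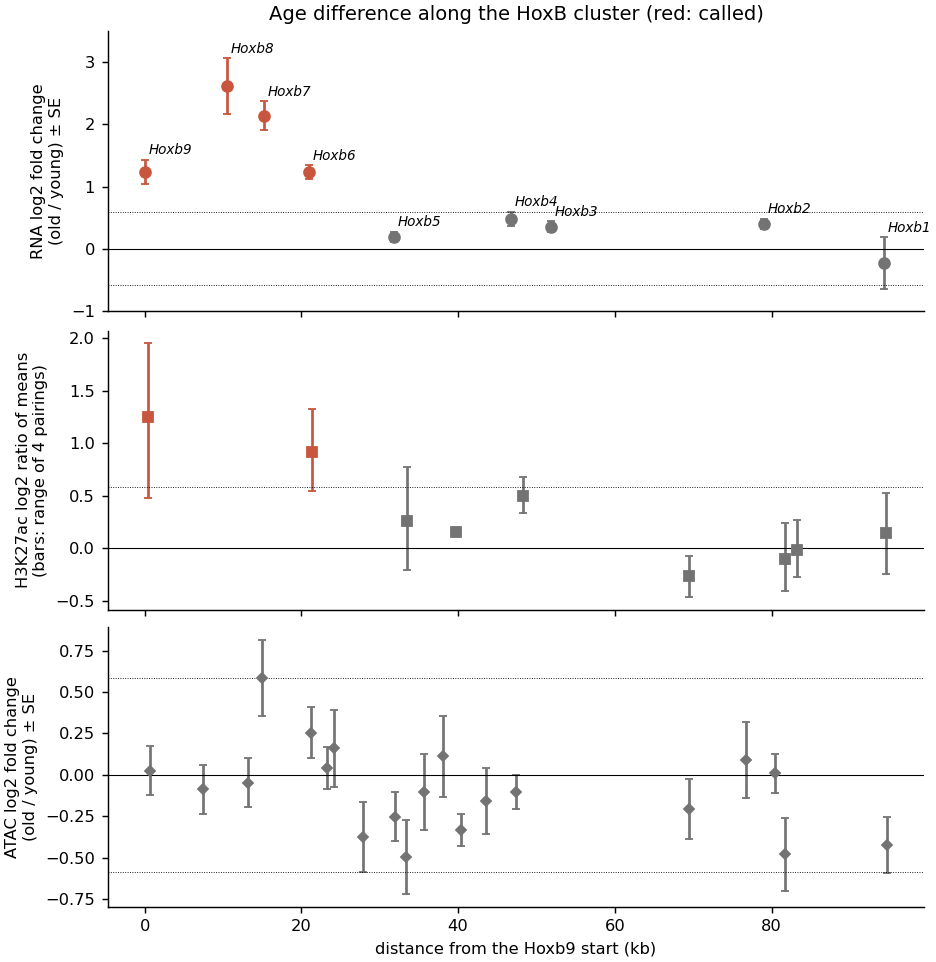
Age difference along the cluster, with distance from the Hoxb9 start in kb on the x axis. The top panel gives log2 fold change ± SE of RNA for each gene, the middle panel the log2 ratio of mean H3K27ac signal with the range of the 4 old-to-young library pairings, and the bottom panel log2 fold change ± SE of ATAC-seq for the 20 regions tested. Red marks what was called, dotted lines mark a 1.5-fold change, and the red points sit at Hoxb9 to Hoxb6 for RNA and at the starts of Hoxb9 and Hoxb6 for H3K27ac.

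Partners and regulators of Hox genes were read from lists. Of 11 TALE cofactors, all tested, 2 were called higher in old HSCs and 0 lower, among them Pbx3 (29.7 to 70.5 CPM, 2.44-fold), a DNA-binding partner of Hox proteins. Of 11 retinoid genes 8 were tested and 3 were called higher, namely Aldh1a1, which makes retinoic acid (2.52-fold), Cyp26b1, which degrades it (1.89-fold), and the receptor gene Rarb (1.86-fold). By edgeR and by DESeq2 0 of 13 MLL and elongation genes, 0 of 6 boundary genes (Ctcf and cohesin), 0 of 8 tested HoxA genes and 0 of 3 tested HoxC genes were called, with unadjusted p below 0.05 in 7, 5, 3 and 0 of them. Over all 21522 genes tested by edgeR, 4.69% were called higher in old HSCs and 6463 had an unadjusted p below 0.05. No HoxD or caudal (Cdx) gene passed the filter. The median log2 fold change was 0.12 for the TALE list, 0.25 for the retinoid list and -0.13 for HoxA, against -0.01 over all genes.

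Markers of other blood cells moved with age as well. B cell markers summed to 73.1 to 126 CPM in young and 35.9 to 43.3 CPM in old HSCs, and 5 of 6 were called lower. Granulocyte and monocyte markers summed to 146.6 to 177.7 and 308.4 to 352.3 CPM, with 1 of 7 tested called higher (Prtn3) and 3 lower. Megakaryocyte markers summed to 488.1 to 507.8 and 856 to 1185 CPM, with Itga2b and Vwf called higher. Erythroid markers overlapped between the ages, at 1540 to 1654 and 1245 to 1707 CPM, with 2 of 8 called higher and 4 lower. T cell markers summed to 13.0 to 14.4 and 9.47 to 13.1 CPM, and the 1 tested was not called. No marker of these lists was at 0 in every library of either age. Their part in the HoxB differences was not tested.

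No ATAC-seq region over the cluster was called with age. Of the 27 regions 20 passed the CPM filter and 0 of these were called (edgeR, fold change above 1.5 and adjusted p below 0.01, with 5 unadjusted and 3 adjusted p-values below 0.05, and 0 by DESeq2), where 13% of 89245 regions tested were called in either direction. The region over the Hoxb9 exon, chr11:96271565-96272640, had 4.47, 4.20, 5.09 and 6.55 CPM in young and 6.06, 5.26, 4.97 and 4.69 CPM in old HSCs. These ranges overlapped, and the log2 difference was 0.03 ± 0.15 (edgeR adjusted p = 0.917).

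The region at the Hoxb7 start, chr11:96286135-96286645, was the one most raised of the 20. It measured 0.943, 1.86, 2.37 and 1.5 CPM in young and 2.38, 2.55, 2.75 and 2.26 CPM in old HSCs, with the highest young library above the lowest old one. Its log2 difference of 0.58 ± 0.23 had an edgeR adjusted p of 0.0439, above the limit of 0.01.

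The most accessible region of the cluster lay between Hoxb5 and Hoxb4, chr11:96311208-96312328, with no gene annotated there. Young libraries had 15.05, 13.7, 13.9 and 14.6 CPM and old libraries 13.4, 10.6, 11.02 and 10.7 CPM. All old libraries lay below all young ones, by 0.33 ± 0.10 on the log2 scale (edgeR adjusted p = 5.21e-03), a change under 1.5-fold and opposite in sign to the RNA differences of its neighbours. A further region in an exon of Hoxb1, chr11:96365810-96366616, measured 4.10, 4.06, 4.18 and 3.43 CPM in the young libraries and 3.21, 3.03, 2.71 and 2.83 CPM in the old ones. These were also apart (log2 -0.42 ± 0.17, edgeR adjusted p = 0.0487).

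H3K27ac, a mark of active promoters and enhancers, was higher at the Hoxb9 start. The 2 young libraries had signals of 1.54 and 1.01 over this peak, chr11:96271080-96272737, and the 2 old libraries 2.15 and 3.88, in the authors' units of reads scaled to a common total. Both old values exceeded both young ones, with a ratio of means of 2.37 and pairings from 1.40 to 3.86. A limma fit on log2(signal + 0.5) over all peaks gave an adjusted p of 9.27e-03. This was 1 of 5 peaks named after a member that met the rule for changed peaks (ratio of means above 1.5, all 4 pairings at least 1.2), which 9.11% of all peaks met in this direction. Without young replicate 1 it was met by 3 of the 5, Hoxb9, Hoxb5 and Hoxb4.

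The peak over the Hoxb6 start, chr11:96291885-96293735, also met the rule, although its table names it after Hoxb5os. Its signals were 1.99 and 1.41 in young and 2.90 and 3.53 in old HSCs, without overlap, with a ratio of 1.89 (limma adjusted p = 0.0188). The ratio was 1.41 at Hoxb4, 1.2 at Hoxb5, 1.11 at Hoxb1 and 0.836 within Hoxb3, none of which met the rule. Between Hoxb5 and Hoxb4, where accessibility was lower in old HSCs, the H3K27ac ratio was 1.11, with pairings from 1.09 to 1.13. Hoxb8 and Hoxb7 had no H3K27ac peak in the table.

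In young HSCs the promoter mark H3K4me3 was found along the whole cluster. Mean signal in the peaks named after members was 9.14 at Hoxb9, 10.7 at Hoxb8, 12.3 at Hoxb7, 17.3 at Hoxb6 and 24.1 at Hoxb5, where the peak stood at percentile 91.97 of all H3K4me3 peaks. Past Hoxb5 it was 18.5 at Hoxb4, 20.9 at Hoxb2 and 7.83 at Hoxb1, and 6.03 and 1.59 in 2 peaks inside Hoxb3. The replicate values lay within 3 units of each other at every one of these peaks. So these 5 peaks had the same order in signal as along the chromosome, although 2 further peaks at the start and in an intron of Hoxb6 had 16.0 and 13.6, and an intergenic peak between Hoxb9 and Hoxb8 had 3.87.

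H3K27ac in young HSCs was lowest at Hoxb9, 1.27, of the 9 peaks over the cluster. It was highest at the intergenic peak between Hoxb5 and Hoxb4, 6.42, followed by Hoxb5 at 4.36. A single H3K27me3 domain, the Polycomb mark, reached into the cluster at chr11:96352000-96386999, over Hoxb1 and part of Hoxb2, with signals of 0.942 and 1.09 at percentile 97.62 of all domains of this mark. H3K36me3, laid down along transcribed genes, was listed over Hoxb7 (2 kb), over Hoxb6 and Hoxb5 (5 kb), over Hoxb4 and Hoxb3 (32 kb) and over Hoxb2 (1 kb), and not over Hoxb8, Hoxb9 or Hoxb1. The H3K4me3 and H3K27me3 signals are those of young HSCs, while the H3K36me3 list is assigned to no group.

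**Figure D3:**
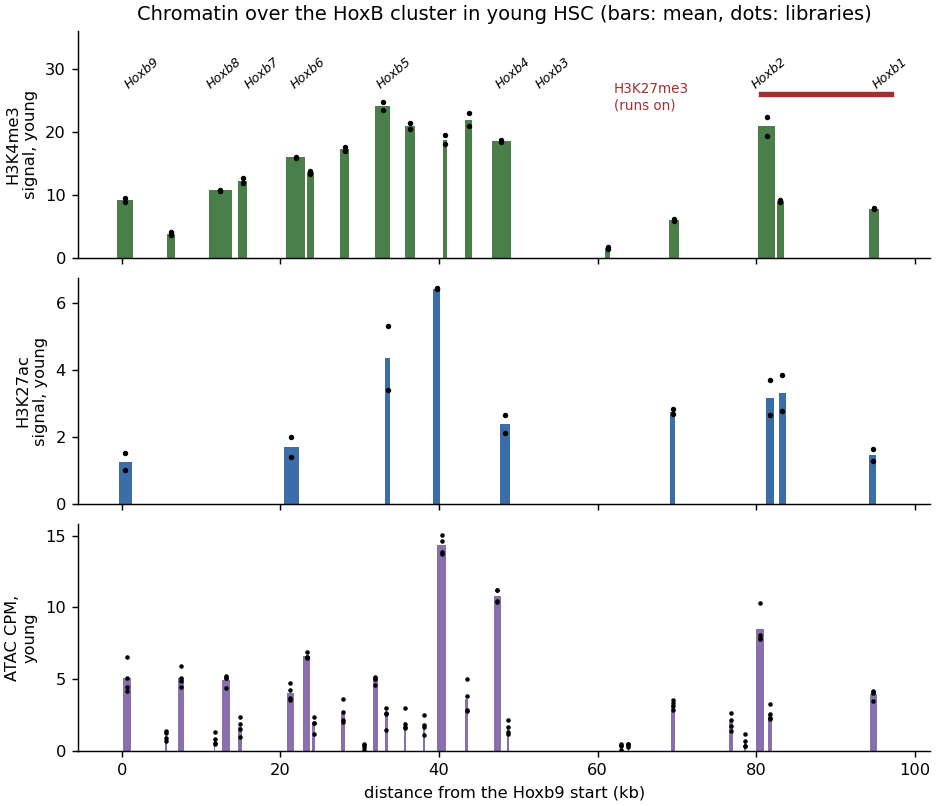
Chromatin over the cluster in young HSCs, with distance from the Hoxb9 start in kb on the x axis. Bars give the mean H3K4me3 signal, H3K27ac signal (reads scaled to a common total) and ATAC-seq CPM of each peak or region at its true width, dots the libraries, and the red line the H3K27me3 domain, which runs past Hoxb1. ATAC-seq CPM is TMM-scaled for the regions tested and plain for the others. H3K4me3 is 9.14 at Hoxb9 and 24.1 at Hoxb5, while the highest H3K27ac and ATAC-seq bars stand between Hoxb5 and Hoxb4.

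The hairpins address Btaf1, a regulator of TATA-binding protein, and RNA of this gene was checked first. In culture it measured 137 and 141.1 CPM in controls, 110 and 119.2 with shRNA1 and 111.2 and 113.4 with shRNA2. After transplantation it was 160.6 and 165.5 in controls, 131.2 and 139.2 with shRNA1 and 117.8 and 119.2 with shRNA2. All hairpin libraries were below their controls, by 0.31 ± 0.04 (edgeR adjusted p = 4.44e-06) and 0.37 ± 0.06 (adjusted p = 0.463) on the log2 scale. The hairpins were designed against the end of the shorter Btaf1 variant, and gene counts do not separate variants.

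In culture, no HoxB gene passed the test for the hairpins. Called were 0 of 8 members tested by edgeR and 0 by DESeq2, 1 had an unadjusted p below 0.05, and 1.72% of 19763 genes tested were called in either direction. Hoxb6 came nearest. It had 3.79 and 3.38 CPM in controls, 5.02 and 3.87 with shRNA1 and 5.17 and 6.03 with shRNA2, so that every hairpin library exceeded both controls. Controls and hairpins did not overlap in Hoxb3 and Hoxb5 either, 3 of 8 members in all, where this held for 25.43% of genes tested. The log2 fold change of Hoxb6 was 0.46 ± 0.17 (edgeR adjusted p = 0.104). With shRNA2 alone against the control it was 0.64 and passed (adjusted p = 0.0424).

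Of the other members in culture, Hoxb9 stood at 4.70 and 6.78 CPM in controls and 4.47 to 4.95 CPM in the 4 hairpin libraries (log2 -0.27 ± 0.16, adjusted p = 0.380). One control lay above all hairpin libraries and the other within their range. Hoxb2 differed by 0.01 ± 0.07, Hoxb3 by 0.08 ± 0.13, Hoxb4 by 0.05 ± 0.20, Hoxb5 by 0.17 ± 0.13 and Hoxb7 by -0.05 ± 0.23 on the log2 scale. Hoxb8, counted 8 to 36 times a library, differed by 0.05 ± 0.61. Hoxb1 had at most 10 counts in a culture library and was not tested.

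After transplantation 0 of 8 members were called (0 with an unadjusted p below 0.05, 0 by DESeq2), where 0% of 20350 genes were called by edgeR and 40 genes by DESeq2. Hoxb7, Hoxb8 and Hoxb9 varied widely between libraries of 1 hairpin group. Hoxb7 had 1.14 and 0.745 CPM in controls, 0.708 and 1.95 with shRNA1 and 1.06 and 3.26 with shRNA2, and differed by 0.83 ± 0.57 (adjusted p = 0.807). Hoxb9 had 2.37 and 1.70 CPM in controls, 0.635 and 1.90 with shRNA1 and 2.24 and 5.31 with shRNA2, and differed by 0.09 ± 0.48 (adjusted p = 0.983).

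In each hairpin group after transplantation the library with more Hoxb7 also had more Hoxb9. Hoxb6 differed by -0.34 ± 0.24 (adjusted p = 0.816), from 7.02 and 5.80 CPM in controls to 3.64 to 6.84 CPM with the hairpins. Hoxb8, at 4 to 46 counts, differed by -0.75 ± 0.65. Hoxb2 to Hoxb5 differed by at most 0.19 on the log2 scale in either direction, with errors of 0.13 to 0.25. Granulocyte and monocyte markers ranged from 192.4 to 457.1 CPM among the 6 transplanted libraries, and their part in the spread of these genes was not tested.

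The difference between the hairpin effect in culture and after transplantation was tested directly. Of 8 members 0 were called (1 with an unadjusted p below 0.05, 0 by DESeq2), where 0.476% of 21443 genes were called by edgeR. The one with an unadjusted p below 0.05 was Hoxb6, whose effect was 0.79 ± 0.305 higher in culture on the log2 scale (edgeR adjusted p = 0.313). Of the lists read for culture, Meis3 among the TALE cofactors (2.28-fold) and Cyp26b1 (3.67-fold) and Rarb (2.11-fold) among the retinoid genes were called higher with the hairpins. After transplantation 0 genes of the TALE and retinoid lists were called by edgeR or DESeq2, with unadjusted p below 0.05 in 0 of 10 and 3 of 8. In the direct test of the difference 0 of 10 TALE genes were called (3 with an unadjusted p below 0.05, 0 by DESeq2), and 2 of 8 retinoid genes had a higher hairpin effect in culture, Cyp26b1 by 2.60 ± 0.44 (edgeR adjusted p = 0.0237) and Rarb by 1.87 ± 0.33 (adjusted p = 0.0266) on the log2 scale.

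**Figure D4:**
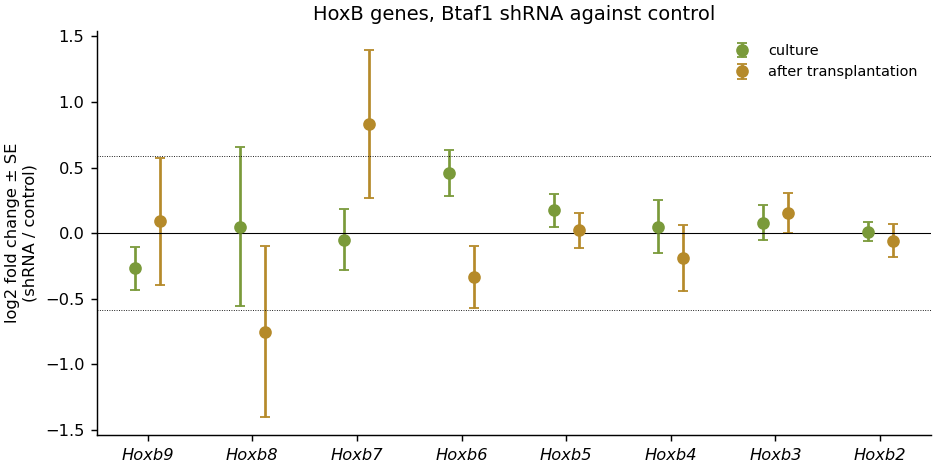
Log2 fold change ± SE (y axis) of each tested HoxB gene, Btaf1 hairpins against scrambled control, in culture (green) and after transplantation (brown), with 4 hairpin and 2 control libraries each. Dotted lines mark a 1.5-fold change, and the only means beyond them, Hoxb7 and Hoxb8 after transplantation, have errors of 0.57 and 0.65.

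Control HSCs in culture and after transplantation differed in 3 of 8 members tested, where 25.3% of genes were called in either direction. Hoxb9 was higher in culture (4.70 and 6.78 against 2.37 and 1.70 CPM, log2 1.62 ± 0.46, edgeR adjusted p = 0.0128). Hoxb5 was lower in culture (8.70 and 8.34 against 13.1 and 15.7 CPM, log2 -0.62 ± 0.15, adjusted p = 4.21e-03). Hoxb6 was lower in culture too (3.79 and 3.38 against 7.02 and 5.80 CPM, log2 -0.70 ± 0.25, adjusted p = 0.0347). In each of these genes the 2 settings did not overlap, as held for 6 of 8 members and for 73.91% of the genes tested.

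Markers of the cells moved between the settings too. HSC markers summed to 1897 to 1934 CPM in culture and 3522 to 3595 CPM after transplantation, with 5 of 8 called lower in culture. Megakaryocyte markers summed to 1252 to 1288 and 429.2 to 610 CPM, with 2 of 4 tested called higher in culture, and erythroid markers to 528.3 to 532.8 and 1288 to 1720 CPM, with 1 of 8 called higher and 2 lower. Granulocyte and monocyte markers summed to 171.4 to 180 and 194.9 to 298.3 CPM, with 4 of 8 at 0 in both culture libraries and 0 called (1 with an unadjusted p below 0.05, 2 called by DESeq2). B cell markers were at 17.4 to 18.6 and 30.1 to 32.0 CPM, with 2 of 3 tested called lower, and T cell markers at 18.6 and 11.2 to 13.7 CPM, with the 1 tested called higher. Their part in the HoxB differences was not tested.

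Hoxb7 leaned the way of Hoxb9, at 2.15 and 2.36 CPM in culture and 1.14 and 0.745 after transplantation (log2 1.39 ± 0.53, edgeR adjusted p = 0.0520), and was called by DESeq2. Hoxb2 differed by -0.02 ± 0.12 and Hoxb3 by -0.07 ± 0.15. Of the 9 HoxA genes tested 5 were lower in culture and 0 higher, among them Hoxa3 (3.65-fold) and Hoxa10 (2.83-fold). Calls on Hoxb5, Hoxb6 and Hoxb9 did not all hold when 1 library was left out: Hoxb9 lost its call without culture control replicate 2 (adjusted p = 0.0895) or transplant control replicate 2 (adjusted p = 0.0979), Hoxb5 fell below 1.5-fold without the latter, and Hoxb6 held only without it. Culture, transplantation and the sorting and library preparation that went with each cannot be told apart.

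The progenitors had much less HoxB RNA than young HSCs, least so for Hoxb4. All 8 members tested were called lower than in young HSCs in CMP, in GMP and in MEP, where 42.8%, 47.3% and 52.7% of the 25716 genes tested were called lower. Over all genes tested the median log2 difference was -0.49 in CMP, -0.70 in GMP and -1.11 in MEP, and each tested member lay below it. Hoxb8 was below the filter. Hoxb2, Hoxb3 and Hoxb4 also passed the filter among the progenitors alone. The other members tested passed it only through their level in HSCs, so the count of 8 is a description. HSC and progenitor libraries also differed in their share of even counts, given above, and library preparation and cell type cannot be told apart.

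Hoxb4 differed least from HSCs. It measured 1.59 and 1.74 CPM in CMP, 1.52 and 1.60 in GMP and 0.282 and 0.396 in MEP, all below the young HSC range of 4.69 to 5.39 CPM. The log2 differences were -1.25 ± 0.24, -1.15 ± 0.24 and -3.41 ± 0.30 (edgeR adjusted p = 7.78e-05, 1.93e-04 and 6.64e-10). Hoxb2 had 1.59 and 0.449 CPM in CMP, 0.113 and 0.542 in GMP and 0.282 and 0.509 in MEP, against 17.8 to 21.2 in young HSCs.

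Hoxb3 had 0.520 and 0.505 CPM in CMP, 0.141 and 0.241 in GMP and 0.0563 and 0.141 in MEP, down from 9.16 to 11.7 in young HSCs. Hoxb5, at 15.1 to 20.3 CPM in young HSCs, had 0.219 and 0.449 in CMP. It was counted 2 times over both GMP libraries, which may be 1 read pair, and 0 times in MEP.

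The members called higher with age were absent from the progenitor libraries or nearly so. Hoxb9 and Hoxb7 were at 0 counts in all 6 progenitor libraries. Against a floor of 6 reads (3 read pairs) over each group, Hoxb9 was at least 43.2-fold lower in CMP, 41.1-fold in GMP and 42.4-fold in MEP, and Hoxb7 at least 11.9-, 11.3- and 11.7-fold lower. Hoxb8, also at 0 counts, was at least 2.53-, 2.41- and 2.49-fold lower, its level in young HSCs being low. Hoxb6 had 4 counts in each CMP library, 2 in all in GMP and 0 in MEP, where it was at least 49.3-fold lower.

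Hoxb5 was at least 208-fold lower in MEP, and Hoxb1 at least 8.94-fold lower in CMP and 8.77-fold in MEP, with 1 count in GMP. These bounds cover counting error only. As checks of the labels, all 8 HSC markers were called lower in each progenitor, all 8 granulocyte and monocyte markers higher in GMP, and all 8 erythroid markers higher in MEP. Megakaryocyte markers went the other way in MEP, with 4 of 4 tested called lower than in young HSCs and lower than in CMP, and sums of 24.3 to 25.1 CPM in MEP against 488.1 to 507.8 in young HSCs and 565 in CMP. HoxA genes were also lower, 6, 8 and 7 of 9 tested in CMP, GMP and MEP.

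Among the progenitors only Hoxb2, Hoxb3 and Hoxb4 passed the filter. MEP had less Hoxb4 than CMP (log2 -2.17 ± 0.40, edgeR adjusted p = 3.56e-04) and than GMP (-2.29 ± 0.41, adjusted p = 2.45e-04). Hoxb3 was counted 19 and 18 times in CMP but 2 and 5 times in MEP and 5 and 8 times in GMP, so it passed the filter only through CMP, and its fitted log2 difference between MEP and CMP of -2.22 ± 0.82 is a description. Beside it, 1 of the other 2 members, Hoxb4, was called lower in MEP than in CMP, where 29.2% of 18234 genes were called lower, and 1 of 3 was lower in MEP than in GMP, where 27.2% were. GMP and CMP differed in 0 of 3 members (0 with an unadjusted p below 0.05, 0 by DESeq2), where 16.7% of genes were called in either direction. The edgeR call that Hoxb3 got between MEP and CMP was lost with DESeq2 (adjusted p = 0.0703) and when any 1 CMP or MEP library was left out (edgeR adjusted p from 0.0586 to 0.184).

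**Figure D5:**
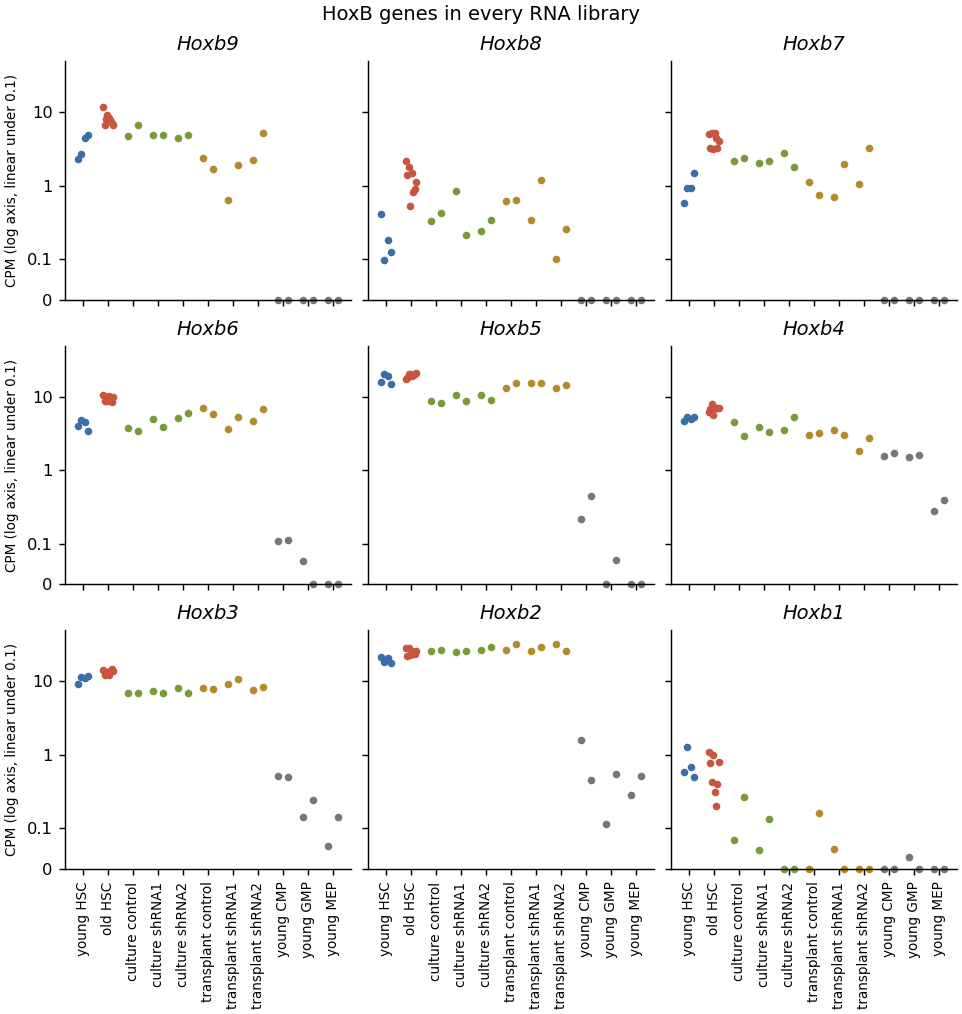
CPM of each HoxB gene in all 30 RNA libraries (log axis, linear under 0.1), 1 point a library, by group. Old HSCs (red) have the highest points for Hoxb6 and Hoxb7, Hoxb2 lies between 25.4 and 32.3 in every hairpin library, and the progenitors (grey) are at 0 for Hoxb7, Hoxb8 and Hoxb9 and at 0.282 to 1.74 for Hoxb4.

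Set in order over the 11 groups, 7 members had their highest mean in old HSCs, all but Hoxb2 and Hoxb1. For Hoxb7 old HSCs (4.23 ± 0.898 CPM) stood apart from the next group, cultured HSCs with shRNA2 (2.28 ± 0.697), although 1 transplanted shRNA2 library (3.26) exceeded the lowest old one (3.22). For Hoxb6 old HSCs (9.57 ± 0.792) stood apart from transplanted controls (6.41 ± 0.867). For Hoxb9 the order was old HSCs, the 3 culture groups, transplanted shRNA2, young HSCs and the other transplanted groups, and each neighbour in it overlapped the next down to the progenitors. Hoxb2 was highest in transplanted controls (29.4 ± 4.11 CPM), followed by the other transplanted and the culture groups, whose neighbours overlapped except for culture control and culture shRNA1, and was lowest of the HSC groups in young HSCs (19.6 ± 1.73).

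Hoxb5 was lower in each culture group than in every other HSC group, with fresh HSCs at 17.7 ± 2.55 and 19.7 ± 1.32 CPM, transplanted groups at 13.9 ± 1.17 to 15.5 ± 0.113 and culture groups at 8.52 ± 0.258 to 9.74 ± 1.29. Hoxb1 was highest in young HSCs (0.761 ± 0.348 CPM) and reached at most 10 counts in any hairpin library. Summed over the cluster, the hairpin groups lay between 57.8 and 65.2 CPM, with young HSCs at 63.0 and old HSCs at 89.2, and CMP, GMP and MEP had 3.64, 2.15 and 0.833 CPM. With the TMM scaling of the tests, young HSCs were at 54.95, old HSCs at 78.86 and the hairpin groups at 62.2 to 68.46, so that all 6 hairpin groups stood above young HSCs on this scale, but not in plain CPM. These levels come from library sets prepared separately. Hairpin-set HSCs came from old mice.

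The genes whose mean profile over the 11 groups was most like that of the 8 members that reached 1 CPM in a group were, of 13632 genes compared, Vwa1 (Pearson's r of log2(CPM + 0.5) = 0.9975), Gm42517 (0.9972), Itga3 (0.9954), Rin1 (0.9945) and Gm37090 (0.9936). These r values are a description over 11 groups that share library sets and depth. Vwa1 measured 8.74 CPM in young and 11.9 CPM in old HSCs and 1.17 to 1.63 CPM in the progenitors.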

How the data were processed

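Gene expression, open chromatin and histone marks were measured in young and old mouse HSCs, in hairpin-treated HSCs and in progenitors. Per the labels and the study's methods, RNA reads were trimmed with cutadapt, aligned with STAR and counted with featureCounts (GENCODE M22, mm10), and the authors deposited raw counts per gene. ATAC-seq was aligned with BWA, peaks were called with MACS2, and the authors deposited raw counts per region. For ChIP-seq the authors deposited the signal per peak of each library, scaled to a common read total, and H3K36me3 as domain positions. Kits are given differently in the labels and the methods. Whether counting used strand is not stated in the sources used here. FoldChange and log2 fold change columns hold the authors' own comparisons and were not used. Also left out were 92 spike-in rows and 8 columns of per-sample values that match no sample here.

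Counts were fitted with edgeR 4.0.16 in R 4.3.3 (TMM, filterByExpr, robust quasi-likelihood test), and called at a fold change above 1.5 with an adjusted p below 0.05 over all genes tested. ATAC-seq regions needed over 1.5 CPM in at least 4 libraries and an adjusted p below 0.01. H3K27ac signal was called by ratio, and checked with limma 3.58.1 on log2(signal + 0.5). DESeq2 1.42.0, other scalings, filters, thresholds, 1 hairpin at a time, left-out libraries and the replicate number as a block were the alternatives. Scripts were tested on simulated data. CPM in the text is counts over library total, except for the ATAC-seq regions tested. Theirs is counts over the TMM-scaled total of the regions that passed the filter. A count of 0 was bounded by 3 read pairs, or 6 reads. Same-numbered libraries did not deviate together (correlations of 0.0368, -0.1172, 0.0019 and -0.2264 between young and old HSCs).

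Members, lists and markers were chosen with earlier results of these data known. Named were all members, annotated genes inside the cluster and the 3 nearest coding genes on each side, up to 4 called genes per list, and the 5 genes of most similar profile. Some items are not reported here.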

Additional observations from a re-analysis of the deposited data

Results flagged for a closer look

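Among 58 sets of libraries looked at, 4 held a library far from the rest of its group, all in ATAC-seq, where chance alone gives about 1 in 20. Each value below is the gap to the nearest library divided by the whole range. In the region 38.1 kb from the Hoxb9 start, old replicate 6 had 2.39 CPM and the other old libraries 1.57 to 1.70 (0.851). In the region between Hoxb5 and Hoxb4, at 40.3 kb, old replicate 5 had 13.4 CPM and the others 10.6 to 11.02 (0.86). In the region inside Hoxb2, at 80.5 kb, young replicate 3 had 10.3 CPM and the others 7.79 to 8.05 (0.896). In the Hoxb1 region, at 94.8 kb, young replicate 4 had 3.43 CPM and the others 4.06 to 4.18 (0.836). Leaving out each library in turn, the difference between Hoxb5 and Hoxb4 ran from -0.41 to -0.30 and that at Hoxb1 from -0.49 to -0.38 on the log2 scale.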

How the results depend on the processing

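In old against young HSCs 4 members were called under every alternative but 1: with no fold threshold 7 were, adding Hoxb2, Hoxb3 and Hoxb4. Hoxb8 was among the 4, and since it passed the filter only through the old libraries, its call is a description. In culture 1 member (Hoxb6) was called with shRNA2 alone. Between GMP and CMP, 2 members (Hoxb3, Hoxb5) were called with young HSCs in the fit, and 0 to 1 with a library left out (Hoxb2, without GMP replicate 2). Between MEP and CMP, 1 was called with DESeq2, 3 with no count filter (adding Hoxb5), 4 with young HSCs in the fit, and 1 to 2 with a library left out. Between control HSCs in culture and after transplantation, 1 was called at a fold change above 2, 4 (adding Hoxb7) with DESeq2, with DESeq2 size factors in edgeR or with no count filter, and 1 to 2 with a library left out. Of the ATAC-seq regions, 1 was called with no fold threshold (between Hoxb5 and Hoxb4) and 1 with no CPM filter (chr11:96301866-96302017, a thinly covered region). The thinly covered region had 0.0648 to 0.461 CPM in young and 0.599 to 1.35 CPM in old HSCs. For H3K27ac, 1 to 3 peaks were called with a library left out, the 3 (Hoxb9, Hoxb5, Hoxb4) without young replicate 1. The progenitor counts of 8 held throughout, with Hoxb8 added where no filter was applied.  The cause was not tested.

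Replicate numbers did not pair the libraries, and with the number as a block the calls were 4 (age, Hoxb8 included), 0 (culture), 0 (transplantation), 0, 2 and 1 (progenitor pairs), 3 (culture against transplantation), 0 (difference of the hairpin effects) and 1 (H3K27ac). Under that block Hoxb1 with age turned to 0.16 and Hoxb9 after transplantation to -0.12.

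Members that were not called changed sign as follows (log2). With shRNA1 alone in culture Hoxb2 was -0.075 and Hoxb4 -0.099, and with shRNA2 alone Hoxb7 was 0.0093 and Hoxb8 -0.37. After transplantation Hoxb4 was 0.065, Hoxb8 0.29 and Hoxb9 -0.70 with shRNA1 alone, and Hoxb3 -0.0022 and Hoxb5 -0.057 with shRNA2 alone. The ATAC-seq region at the Hoxb9 exon was -0.0014 with no CPM filter. With 1 library left out, ranges were -0.40 to 0.10 for Hoxb1 with age and -0.046 to 0.18 for that region. In culture they were -0.021 to 0.047 for Hoxb2, -0.23 to 0.41 for Hoxb4, -0.23 to 0.10 for Hoxb7, -0.61 to 0.38 for Hoxb8 and -0.51 to 0.016 for Hoxb9. After transplantation they were -0.20 to 0.10 for Hoxb2, -0.10 to 0.16 for Hoxb5 and -0.41 to 0.38 for Hoxb9. For Hoxb2 they were -0.56 to 1.68 between MEP and GMP and -0.16 to 0.13 between the control settings. For the difference of the hairpin effects they were -0.089 to 0.21 for Hoxb2, -0.036 to 0.60 for Hoxb4 and -0.65 to 0.13 for Hoxb9.

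Over all genes, edgeR called 0 after transplantation, DESeq2 40, edgeR without the filter 250, and 1507 had an unadjusted p below 0.05. For the difference of the hairpin effects edgeR called 102, DESeq2 233 and edgeR without the filter 470. With 2 libraries a group, hairpin effects on Hoxb7 to Hoxb9 after transplantation were poorly resolved, with errors of 0.48 to 0.65, and Hoxb8 and Hoxb1 were near the limit of counting in most libraries.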
